A study of Mus musculus with 19 samples.

Results

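The genes described here are 10 members of the NF-kB system in mouse spleen myeloid cells: the 5 subunits Nfkb1, Rela, Rel, Nfkb2 and Relb, the inhibitors Nfkbia and Nfkbie, the nuclear regulators Nfkbiz and Bcl3, and the deubiquitinase Tnfaip3. They were taken by symbol from a table of 38887 genes, and all 10 were among the 12943 genes that passed the filter on low counts. RNA was sequenced in 19 libraries of myeloid-derived suppressor cells (MDSC), which can restrain T cells, from mice for which the sources used here give no treatment, strain or genotype. The groups were newborn PMN-MDSC (5 libraries), adult PMN-MDSC (6), newborn M-MDSC (5) and adult M-MDSC (3), with newborns 7 days old and adults 6 to 8 weeks old. PMN-MDSC are the neutrophil-like form (CD11b+ Ly6C intermediate Ly6G+) and M-MDSC the monocyte-like form (CD11b+ Ly6C high Ly6G-) from spleen. The protocols describe Ly6G beads as well as CD11b beads followed by sorting and do not say which library used which; the comparisons ask how these cells differ between newborns and adults.

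NF-kB is a family of transcription factors that bind DNA as pairs of subunits. In resting cells most pairs are held in the cytoplasm by IkB proteins, and signals from Toll-like, IL-1 and TNF receptors lead the IKK kinase to mark IkB for destruction, which frees the pair to enter the nucleus. Several genes of the system, Nfkbia and Tnfaip3 best known among them, are themselves switched on by NF-kB and restrain it again, and in neutrophils and monocytes the pathway drives the RNAs of many inflammatory cytokines and chemokines.

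Levels are given as CPM, the reads of a gene scaled to a common library size. Every group held libraries of both batches that the labels number 1 and 2, with total counts of 827744 to 2965896 in the 10 libraries of batch 1 and 14026193 to 45135933 in the 9 libraries of batch 2. Ly6g stood at 176 to 245 CPM in newborn PMN-MDSC, 12.1 to 24.7 CPM in adult PMN-MDSC and at most 1.85 CPM in M-MDSC, and the monocyte receptor Ccr2 at 228 to 941 CPM in newborn M-MDSC, 300 to 700 CPM in adult M-MDSC and at most 22.7 CPM in PMN-MDSC, so both separated the labelled cell types, although Ly6g was low in adult PMN-MDSC. Whether replicates are separate animals is not stated; p-values therefore measure only how these libraries spread, part of which may be technical. Across batches, 5 PMN-MDSC library pairs (1 with 32, 2 with 33 and 3 with 34 in adults, 2 with 37 and 3 with 38 in newborns) were closer to each other than the 10 remaining pairs (chi-square per degree of freedom 2.23 to 7.15, against 7.85 to 24.1). The labels do not say whether such a pair shares a source. If it does, the 6 adult and the 5 newborn PMN-MDSC libraries each stand for 3 sources, and every PMN-MDSC n, SD and p-value treats them as more than they are. The fit shares its estimate of the spread over all groups, so the p-values of the M-MDSC comparison would then be affected as well. The same holds for the comparisons between cell types and the difference of age effects. Leaving out the batch 1 PMN-MDSC libraries keeps 1 library of each pair, and calls of the 10 genes that changed are named. For the other genes and the gene lists, calls in that setting were not examined. Kdm5d, a Y-linked gene, was counted in each of the 10 newborn libraries and in none of the 9 adult ones, so age and the mix of sexes cannot be told apart. In such bulk samples fewer cells of a type and less RNA per cell cannot be told apart either.

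The 10 genes lie on 8 chromosomes and are protein coding (GENCODE M21, build GRCm38). Nfkb1 shares sequence with Gm43430, Nfkb2 with Psd and AC114539.1, and Bcl3 with Gm16174 and Gm16175; no source says that strand was used in counting, and reads in those overlaps cannot be told apart. Promoter windows from RefSeq on build GRCm38.p6, from 250 bases before to 50 bases after a start site, were available for 7 of them, 10 windows in all. Windows for Nfkbia, Nfkb2, Rel and Tnfaip3 are shown because their RNAs were lower in newborn PMN-MDSC and the windows hold the kappaB consensus, the 10-base element that NF-kB binds. The window of Rela is shown beside them because its RNA was not called in that comparison and its window holds no match. Since both traits decided the choice, the windows shown cannot relate matches to RNA levels. In newborn M-MDSC Rela was called lower. Capitals mark matches on either strand, and runs of 11 capitals are overlapping matches. The windows are, in the order shown, chr12:55492598-55492897 (minus strand), chr19:46304487-46304786 (plus strand), chr11:23770920-23771219 (minus strand), chr10:19015361-19015660 (minus strand) and chr19:5637291-5637590 (plus strand).
Nfkbia: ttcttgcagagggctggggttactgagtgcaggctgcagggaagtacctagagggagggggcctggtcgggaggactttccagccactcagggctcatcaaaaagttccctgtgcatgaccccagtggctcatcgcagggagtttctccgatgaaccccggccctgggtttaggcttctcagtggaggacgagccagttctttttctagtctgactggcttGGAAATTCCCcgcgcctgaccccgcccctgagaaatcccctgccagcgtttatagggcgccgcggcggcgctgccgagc
Nfkb2: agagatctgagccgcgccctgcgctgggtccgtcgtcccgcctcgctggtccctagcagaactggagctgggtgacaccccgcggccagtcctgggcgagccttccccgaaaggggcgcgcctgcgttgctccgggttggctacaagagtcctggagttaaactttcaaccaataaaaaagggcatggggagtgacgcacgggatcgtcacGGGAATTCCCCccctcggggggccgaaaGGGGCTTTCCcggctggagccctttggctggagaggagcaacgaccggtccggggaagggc
Rel: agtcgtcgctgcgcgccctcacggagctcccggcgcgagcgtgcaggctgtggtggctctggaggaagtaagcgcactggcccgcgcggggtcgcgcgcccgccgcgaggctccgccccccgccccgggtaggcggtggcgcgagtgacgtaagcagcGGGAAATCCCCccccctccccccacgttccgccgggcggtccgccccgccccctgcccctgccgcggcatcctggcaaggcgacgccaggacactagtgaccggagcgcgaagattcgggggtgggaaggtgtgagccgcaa
Tnfaip3: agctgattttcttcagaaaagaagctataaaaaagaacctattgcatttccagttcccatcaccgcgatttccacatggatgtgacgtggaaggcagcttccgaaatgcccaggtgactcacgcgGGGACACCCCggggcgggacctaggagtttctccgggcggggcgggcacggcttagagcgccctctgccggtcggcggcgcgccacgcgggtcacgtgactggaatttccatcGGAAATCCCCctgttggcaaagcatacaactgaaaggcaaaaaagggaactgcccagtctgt
Rela: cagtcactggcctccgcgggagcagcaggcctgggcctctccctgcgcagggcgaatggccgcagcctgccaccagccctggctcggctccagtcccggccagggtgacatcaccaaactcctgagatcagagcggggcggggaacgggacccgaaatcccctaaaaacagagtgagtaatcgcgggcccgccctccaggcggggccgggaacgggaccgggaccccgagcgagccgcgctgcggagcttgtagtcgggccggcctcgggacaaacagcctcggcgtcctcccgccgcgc

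The consensus was searched on both strands and was found in 8 of the 10 windows, belonging to 6 of the 7 genes: Nfkb2, Nfkbia, Nfkbie, Rel, Tnfaip3 and Bcl3. Among all promoter windows of this length 8.46% of 32851 held it, and among all genes with a window 9.55% of 27025. In the Nfkbia window the match starts at position -29, counting the RefSeq start site of each window as 0, which for several genes lies inside the GENCODE gene. In the Nfkb2 window GGGAATTCCC starts at position -39 and GGGGCTTTCC at position -11, and both downstream windows of Nfkb2, which overlap, hold a match at chr19:46305705-46305714. In the Rel window GGGAAATCCC starts at position -92, and in the Tnfaip3 window GGGACACCCC starts at position -125 and GGAAATCCCC at position -12. The second Tnfaip3 window, chr10:19011914-19012213, holds none. The windows of Nfkbie (GGGGGATTCC at position -106) and Bcl3 (GGGAAGTCCC at position 2) are not shown. A match is a description of the letters and not a measured binding site.

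In newborn PMN-MDSC, 8 of the 10 genes were lower than in adult PMN-MDSC, 1 was higher (Nfkb1) and 1 was not called (Rela). By edgeR's quasi-likelihood test with Benjamini-Hochberg adjustment over all genes, a gene was called at an adjusted p under 0.05, and in this comparison 20.5% of all genes were called lower and 27.1% higher, 47.7% in all. The median log2 fold change of the 10 genes was -2.07, against -0.05 over all genes tested. For the 8 lower genes every newborn library lay below every adult library, which held for 23% of all genes, and for Nfkb1 every newborn library lay above, which held for 28.4%. The summed level of the 10 genes was 901 to 1106 CPM in the newborn libraries and 1751 to 4966 CPM in the adult libraries.

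**Figure D1:**
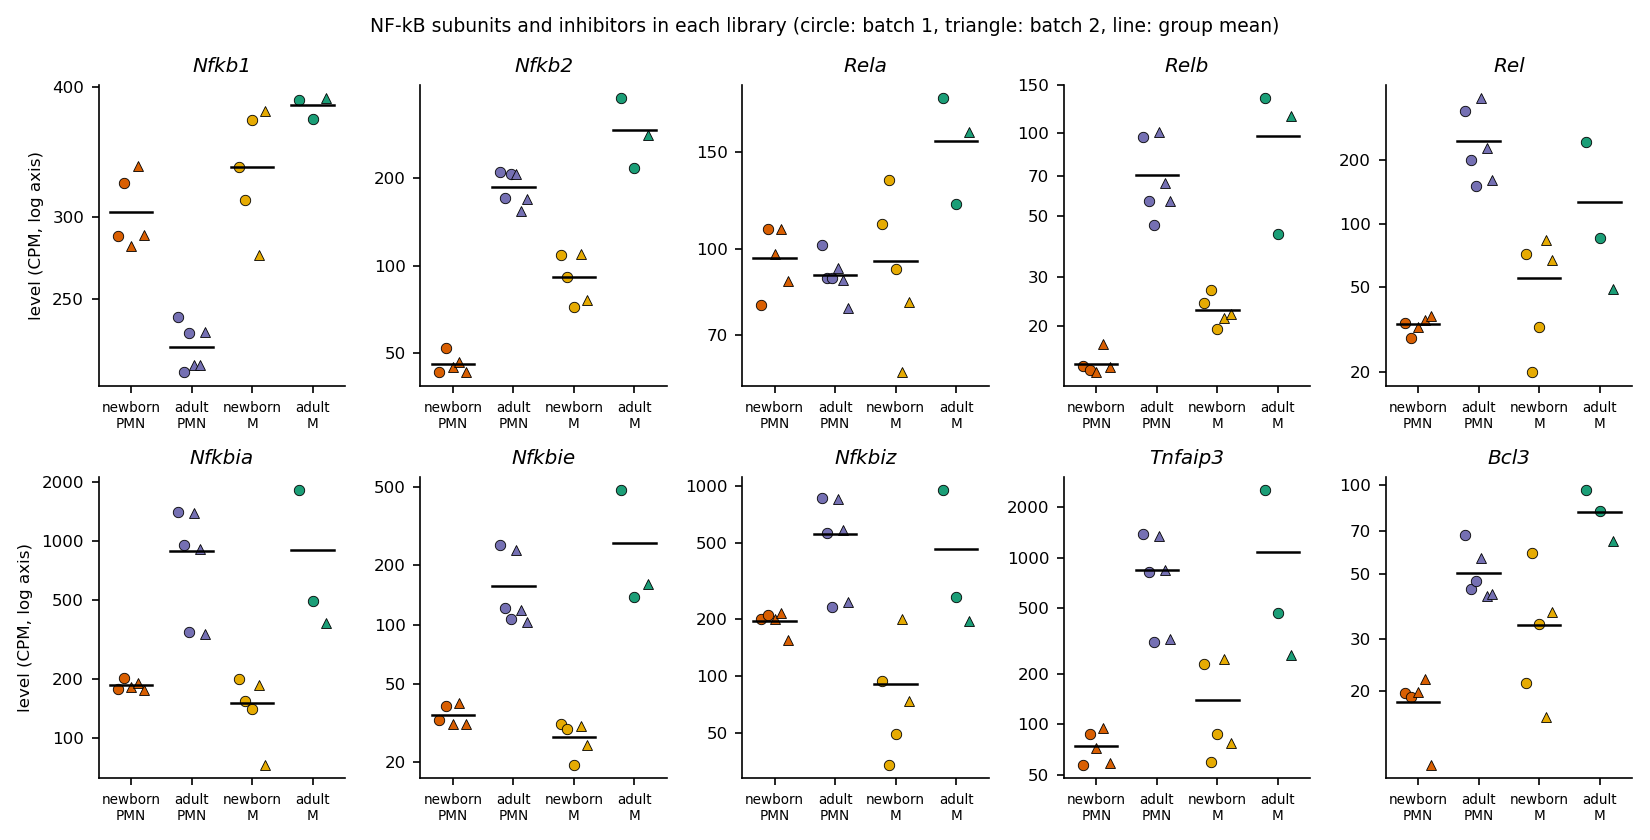
Level of each of the 10 genes in each library (CPM, log axes that differ between panels) by group; circles are batch 1, triangles batch 2, and lines group means. Newborn PMN-MDSC libraries lie below the adult ones for 8 genes, above them for Nfkb1 and among them for Rela.

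Nfkb1 (chr3:135584655-135691547, minus strand) encodes p105, the precursor of the p50 subunit. It stood at 288, 323, 281, 336 and 288 CPM in newborn PMN-MDSC (replicates 2, 3, 37, 38 and 39) and at 213 CPM (lowest), 224 CPM (median) and 240 CPM (highest) in the 6 adult PMN-MDSC libraries. The groups did not overlap, and the newborn libraries were all higher. The log2 fold change was 0.44 ± 0.10 (SE), with an adjusted p of 0.00178 by edgeR's quasi-likelihood test. The call was lost with upper-quartile scaling (0.20), in batch 1 alone (0.40, adjusted p = 0.150) and without the batch 1 PMN-MDSC libraries (0.50, adjusted p = 0.0586), and the adjusted p ran from 0.000431 to 0.150 over its 29 alternatives.

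Rela (chr19:5637483-5648130, plus strand), the p65 subunit that carries a transactivation domain and pairs most often with p50, stood at 79.3, 109, 98.2, 109 and 87.6 CPM in newborn PMN-MDSC, in the same order of replicates, and at 78.1 CPM (lowest), 88.8 CPM (median) and 102 CPM (highest) in adult PMN-MDSC. The groups overlapped widely, and the difference of 0.13 ± 0.17 on the log2 scale did not pass (adjusted p = 0.537). Its sign turned with DESeq2 size factors (-0.04) and with upper-quartile scaling (-0.11), scalings under which the median of all genes shifted by -0.17 and -0.24.

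Rel (chr11:23736847-23770970, minus strand) encodes c-Rel, another subunit with a transactivation domain, prominent in lymphocytes and in cytokine control in myeloid cells. It stood at 33.9, 29.0, 32.6, 35 and 36.7 CPM in newborn PMN-MDSC, against 150 CPM (lowest), 213 CPM (median) and 390 CPM (highest) in adult PMN-MDSC. Every newborn library was far below every adult one, with a log2 fold change of -2.88 ± 0.42 (adjusted p = 1.47e-05), the largest change among the 5 subunits.

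Nfkb2 (chr19:46304320-46312385, plus strand) and Relb (chr7:19606217-19629438, minus strand) form the pair of the non-canonical pathway, in which the p100 precursor encoded by Nfkb2 is processed to p52. Nfkb2 stood at 43.2, 52.3, 45, 46.7 and 43.1 CPM in newborn PMN-MDSC and at 153 CPM (lowest), 188 CPM (median) and 209 CPM (highest) in adult PMN-MDSC. Its log2 fold change was -2.0 ± 0.16 (adjusted p = 9.04e-09), the smallest adjusted p among the 10 genes. Relb stood at 14.2, 13.8, 13.5, 17.1 and 14.2 CPM in newborn PMN-MDSC and at 46.2 CPM (lowest), 61.3 CPM (median) and 101 CPM (highest) in adult PMN-MDSC, a log2 fold change of -2.28 ± 0.27 (adjusted p = 1.04e-06). For both genes the newborn libraries were tightly grouped and the groups did not overlap. Thus 3 of the 5 subunits (Rel, Nfkb2, Relb) fell in newborn PMN-MDSC, while the p50 and p65 genes did not.

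Nfkbia (chr12:55489410-55492647, minus strand) encodes IkB-alpha, the inhibitor that is degraded fastest after stimulation and is rapidly made again. It stood at 177, 202, 181, 191 and 176 CPM in newborn PMN-MDSC and at 337 CPM (lowest), 932 CPM (median) and 1406 CPM (highest) in adult PMN-MDSC. All newborn libraries were lower, 4.69-fold by the fitted ratio (log2 fold change -2.23 ± 0.43, adjusted p = 0.000277). Nfkbie (chr17:45555703-45563169, plus strand), which encodes the related inhibitor IkB-epsilon, stood at 32.8, 38.5, 31.3, 40.2 and 31.1 CPM in newborn PMN-MDSC and at 103 CPM (lowest), 120 CPM (median) and 254 CPM (highest) in adult PMN-MDSC. Its log2 fold change was -2.15 ± 0.32 (adjusted p = 2.17e-05), again without overlap.

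Nfkbiz (chr16:55811375-55838899, minus strand) and Bcl3 (chr7:19808462-19822770, minus strand) encode nuclear IkB-like proteins that sit on DNA-bound p50 or p52 and alter which targets are transcribed. Nfkbiz stood at 199, 209, 199, 214 and 154 CPM in newborn PMN-MDSC and at 229 CPM (lowest), 575 CPM (median) and 869 CPM (highest) in adult PMN-MDSC. The highest newborn library lay just under the lowest adult one, and the log2 fold change was -1.53 ± 0.48 (adjusted p = 0.0129). This call was lost in batch 1 alone (-1.46, adjusted p = 0.0878) and without the batch 1 PMN-MDSC libraries (-1.52, adjusted p = 0.134), and the adjusted p ran from 0.000607 to 0.134 over its 29 alternatives. Bcl3 stood at 19.7, 19, 19.8, 22 and 11.3 CPM in newborn PMN-MDSC and at 42.0 CPM (lowest), 46.0 CPM (median) and 68.0 CPM (highest) in adult PMN-MDSC. Its groups were clearly apart, with a log2 fold change of -1.41 ± 0.26 (adjusted p = 0.000217).

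Tnfaip3 (chr10:19000910-19015657, minus strand) encodes A20, which edits ubiquitin chains on RIP1 and other signalling proteins and so shuts the pathway down upstream of IKK. It stood at 57.5, 87.3, 71.8, 95.1 and 59.0 CPM in newborn PMN-MDSC and at 314 CPM (lowest), 832 CPM (median) and 1379 CPM (highest) in adult PMN-MDSC. The log2 fold change of -3.48 ± 0.61 (adjusted p = 0.000104), an 11.2-fold lower level in newborns, was the largest among the 10 genes. For all 10 genes the age difference had the same sign in both batches fitted alone, but these may not be independent, since 5 of the library pairs across batches were close.

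Markers of other cell types also moved with age in PMN-MDSC, where 20.5% of all genes were called lower and 27.1% higher. All 12 B cell markers measured were lower in newborns, with a summed level of 648 to 990 CPM in newborn and 4424 to 7059 CPM in adult libraries. Of T cell markers 4 of 12 were lower (summed level 54.9 to 81.0 CPM in newborn and 128 to 220.0 CPM in adult libraries), and of dendritic cell markers 3 of 9 (45.8 to 53.2 CPM in newborn and 264 to 465 CPM in adult libraries). Of erythroid markers 10 of 11 were higher (3007 to 5485 CPM in newborn and 110 to 445 CPM in adult libraries). Of the neutrophil markers, those of the sorted cells themselves, 10 of 12 were higher (101772 to 114218 CPM in newborn and 10462 to 11153 CPM in adult libraries) and 1 was lower. Of the monocyte markers 4 of 10 were higher and 4 lower (15094 to 20067 CPM in newborn and 2019 to 2604 CPM in adult libraries). None of these markers was at 0 over a whole PMN-MDSC group, and their part in the NF-kB differences was not tested.

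In newborn M-MDSC, 8 of the 10 genes were lower than in adult M-MDSC, none was higher, and Nfkb1 and Rel were not called. In this comparison 14.3% of all genes were called lower and 15.9% higher, and the median log2 fold change of the 10 genes was -1.88, against 0.01 over all genes tested. For 6 of them (Nfkb2, Relb, Nfkbia, Nfkbie, Tnfaip3 and Bcl3) every newborn library lay below every adult library, which held for 10.4% of all genes. Adult M-MDSC had only 3 libraries, and its replicate 1 was the highest of them for 9 of the 10 genes, all but Nfkb1.

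Among the subunits, Nfkb1 stood at 335, 312, 372, 275 and 380 CPM in newborn M-MDSC (replicates 1, 2, 3, 77 and 79) and at 389, 373 and 390 CPM in adult M-MDSC (replicates 1, 3 and 28). The groups overlapped, and the log2 fold change of -0.20 ± 0.12 did not pass (adjusted p = 0.248). Rela stood at 111, 133, 92.2, 59.8 and 80.3 CPM in newborn M-MDSC and at 188, 121 and 163 CPM in adult M-MDSC. Newborn replicate 2 exceeded adult replicate 3, but the log2 fold change of -0.74 ± 0.20 passed (adjusted p = 0.00857). The call was lost in batch 1 alone (-0.47, adjusted p = 0.207) and with the compared groups only (-0.80, adjusted p = 0.0810), and the adjusted p ran from 0.000318 to 0.207 over its 29 alternatives. Rel stood at 72.0, 19.9, 32.4, 84.1 and 67.4 CPM in newborn M-MDSC and at 242, 85.5 and 49.1 CPM in adult M-MDSC. Its log2 fold change of -1.20 ± 0.47 did not pass (adjusted p = 0.0628), and the batches ran in opposite directions, -1.98 in batch 1 and 0.67 in batch 2. Without adult M-MDSC replicate 28 Rel was called (-1.74, adjusted p = 0.00645), as it was without newborn M-MDSC replicate 77 (-1.35, adjusted p = 0.0408), and its adjusted p ran from 0.00645 to 0.652 over its 29 alternatives.

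Both subunits of the non-canonical pathway were lower in newborn M-MDSC without overlap. Nfkb2 stood at 109, 91.7, 72.3, 109 and 76.2 CPM in newborn M-MDSC and at 375, 216 and 281 CPM in adult M-MDSC, a log2 fold change of -1.66 ± 0.18 (adjusted p = 1.68e-06). Relb stood at 24.1, 26.9, 19.5, 21.4 and 22.1 CPM in newborn M-MDSC and at 134, 43.2 and 115 CPM in adult M-MDSC, a log2 fold change of -2.11 ± 0.29 (adjusted p = 3.01e-05). Leaving out any 1 library ended neither call.

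The inhibitor Nfkbia stood at 199, 155, 141, 187 and 73.5 CPM in newborn M-MDSC and at 1808, 499 and 384 CPM in adult M-MDSC. All newborn libraries were below the lowest adult one, with a log2 fold change of -2.5 ± 0.48 (adjusted p = 0.000697). Nfkbie stood at 31.1, 29.5, 19.5, 30.4 and 24.6 CPM in newborn M-MDSC and at 480, 138 and 161 CPM in adult M-MDSC, a log2 fold change of -3.22 ± 0.37 (adjusted p = 3.85e-06), the largest among the 10 genes in this cell type. Without adult M-MDSC replicate 1 the fold changes were -1.61 for Nfkbia and -2.49 for Nfkbie, and both calls held. In batch 2 alone the call of Nfkbia was lost (-1.53, adjusted p = 0.144), and its adjusted p ran from 1.16e-06 to 0.144 over its 29 alternatives.

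The nuclear regulator Nfkbiz stood at 94.3, 34.0, 49.6, 198 and 73.7 CPM in newborn M-MDSC and at 948, 261 and 195 CPM in adult M-MDSC. Newborn replicate 77 lay just above adult replicate 28, and the log2 fold change was -2.40 ± 0.57 (adjusted p = 0.00381). Bcl3 stood at 21.4, 59.0, 33.8, 16.4 and 37.0 CPM in newborn M-MDSC and at 96.0, 81.8 and 64.8 CPM in adult M-MDSC, a log2 fold change of -1.27 ± 0.30 (adjusted p = 0.00364) without overlap. This call was lost in batch 2 alone (-1.20, adjusted p = 0.140) and with the compared groups only (-1.31, adjusted p = 0.0508), and the adjusted p ran from 0.000144 to 0.140 over its 29 alternatives. Tnfaip3 stood at 232, 59.6, 88.0, 247 and 77.7 CPM in newborn M-MDSC and at 2525 CPM in replicate 1, 464 CPM in replicate 3 and 259 CPM in replicate 28 of adult M-MDSC. The highest newborn library stood just under the lowest adult one, and the log2 fold change of -2.88 ± 0.66 passed (adjusted p = 0.00303). Without adult M-MDSC replicate 1 the calls of Nfkbiz (-1.40, adjusted p = 0.0594) and Tnfaip3 (-1.40, adjusted p = 0.0814) were lost. They were also lost with the compared groups only (adjusted p = 0.0553 for Nfkbiz and 0.0703 for Tnfaip3) and in batch 2 alone, where the 2 genes differed by -0.49 and -0.65, and over their 29 alternatives the adjusted p ran from 4.92e-05 to 0.655 for Nfkbiz and from 0.000181 to 0.585 for Tnfaip3.

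In M-MDSC, where 14.3% of all genes were called lower and 15.9% higher, the marker lists moved as well. All 12 B cell markers were lower in newborns (summed level 173 to 294 CPM in newborn and 1045 to 2579 CPM in adult libraries), as were all 12 T cell markers (12.0 to 43.0 CPM in newborn and 146 to 411 CPM in adult libraries) and 3 of 9 dendritic cell markers (17.3 to 91.9 CPM in newborn and 198 to 249 CPM in adult libraries). None of 11 erythroid markers was called (0.985 to 2852 CPM in newborn and 28.0 to 507 CPM in adult libraries), and Klf1 was at 0 in adult M-MDSC. Of the neutrophil markers 9 of 12 were higher (3187 to 14596 CPM in newborn and 669 to 1163 CPM in adult libraries), and of the monocyte markers, those of the sorted cells, 1 of 10 was higher and 3 lower (18387 to 27569 CPM in newborn and 16199 to 24558 CPM in adult libraries). Adult replicate 1, highest for Nfkbia and Tnfaip3, had the lowest B cell sum of its group, 1045 CPM. The part of these markers in the NF-kB differences was not tested.

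**Figure D2:**
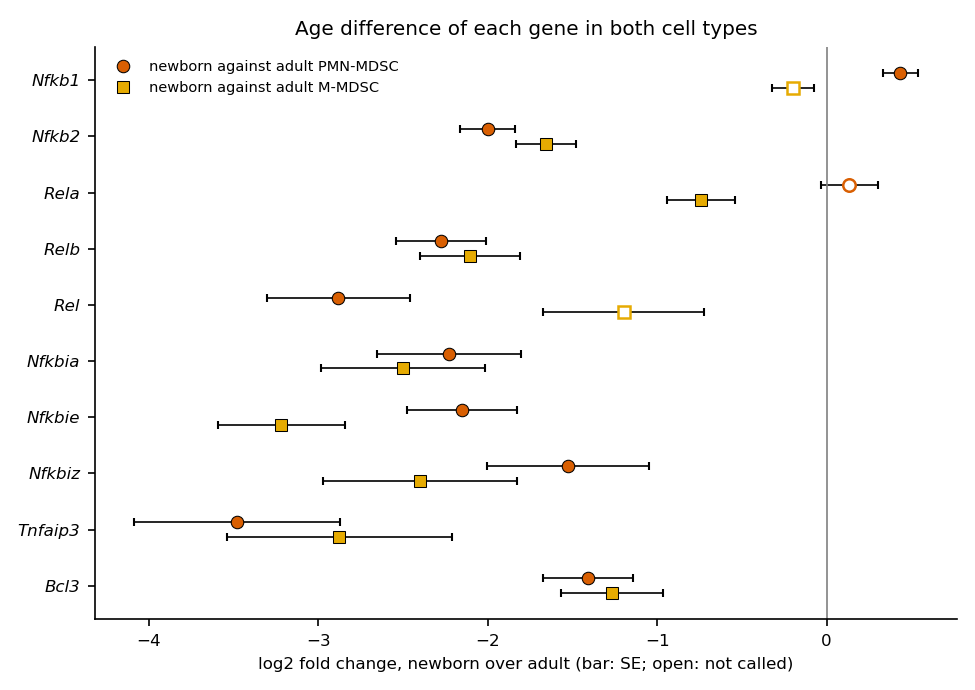
Log2 fold change of each gene, newborn over adult, in PMN-MDSC (circles) and M-MDSC (squares), with bars of 1 SE and open symbols for genes not called. All values but those of Nfkb1 and Rela in PMN-MDSC lie below 0.

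The difference of the age effects, M-MDSC minus PMN-MDSC, was tested in the same model. It was called for 2 of the 10 genes, both lower: Nfkb1 (-0.63 ± 0.16, adjusted p = 0.00923) and Rela (-0.87 ± 0.26, adjusted p = 0.0248), the partners of the commonest NF-kB pair. In this comparison 11.5% of all genes were called lower and 6.61% higher. Nfkb1 was 0.44 higher on the log2 scale in newborn than in adult PMN-MDSC and 0.20 lower in newborn than in adult M-MDSC, and Rela was 0.13 higher and 0.74 lower in the same comparisons. The other 8 genes did not pass, with differences from -1.07 ± 0.48 (Nfkbie, adjusted p = 0.133) to 1.68 ± 0.62 (Rel, adjusted p = 0.0703). Neither call held without the batch 1 PMN-MDSC libraries (adjusted p = 0.0896 for Nfkb1 and 0.0722 for Rela). The call of Rela was also lost without adult M-MDSC replicate 1 (adjusted p = 0.0567) or replicate 28 (adjusted p = 0.0654), while Rel was called without adult M-MDSC replicate 1 (2.57, adjusted p = 0.00537) or newborn M-MDSC replicate 2 (1.86, adjusted p = 0.0403), and Nfkbie without adult M-MDSC replicate 3 (-1.39, adjusted p = 0.0481). Over the 28 alternatives the adjusted p ran from 0.000379 to 0.284 for Nfkb1, from 0.00719 to 0.542 for Rela, from 0.00318 to 0.563 for Rel and from 0.0481 to 0.676 for Nfkbie.

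The 10 genes differed in how far the libraries of 1 group spread. Among newborn PMN-MDSC libraries the coefficient of variation was 5.99% (Nfkbia) to 22.6% (Tnfaip3). Among adult PMN-MDSC libraries it was 5.03% for Nfkb1, 8.58% for Rela and 13% for Nfkb2, but 53.1% for Nfkbia, 55.8% for Tnfaip3 and 50.1% for Nfkbiz. The spread of these 3 genes followed the matched libraries. Nfkbia stood at 1406 and 1381 CPM in adult replicates 1 and 32, at 951 and 913 CPM in replicates 2 and 33, and at 345 and 337 CPM in replicates 3 and 34. Tnfaip3 stood at 1379 and 1355 CPM, 821 and 844 CPM, and 314 and 326 CPM in the same libraries. Nfkbiz stood at 869 and 853 CPM, 566 and 584 CPM, and 229 and 246 CPM. For Nfkbia, Tnfaip3 and Nfkbiz partners in different batches thus agreed closely while the 3 pairs were far apart. Nfkbie, Rel, Relb and Bcl3 were likewise highest in replicates 1 and 32, and Rela by a small margin. For Nfkbie, Relb and Bcl3 the other 4 libraries lay close together (103 to 121, 46.2 to 65.8 and 42.0 to 47.4 CPM). For each of these genes but Rela, even the lowest adult library lay above every newborn library. The summed B cell markers ran the other way, at 4424 and 4590 CPM, 5329 and 5347 CPM, and 6951 and 7059 CPM in the same order. The dendritic cell sum ran the same way, at 443 and 465 CPM, 341 and 346 CPM, and 264 and 278 CPM. Most of that sum (mean 356 CPM over 9 markers) came from Ccr7 (214 CPM) and Itgax (93.6 CPM). Whether the sum tracks dendritic cells was not tested. The part of B cells or dendritic cells in the spread was not tested.

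**Figure D3:**
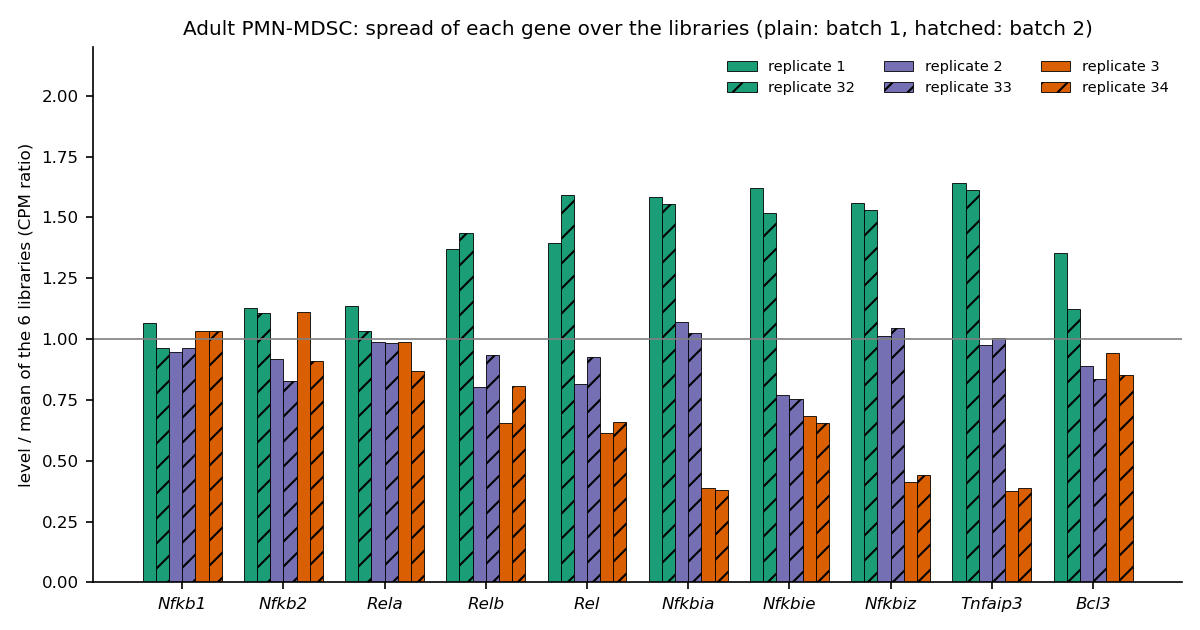
Level of each gene in the 6 adult PMN-MDSC libraries divided by their mean (CPM ratio); colours join the libraries matched across batches, and hatched bars are batch 2. Nfkb1, Nfkb2 and Rela stay near 1, while Nfkbia, Nfkbiz and Tnfaip3 are high in replicates 1 and 32 and low in replicates 3 and 34.

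To compare genes with each other, levels were divided by exon length (CPM per kb). By this measure Nfkbia was the most abundant of the 10 in every group, at 115 ± 6.90 CPM per kb in newborn PMN-MDSC (SD, n = 5), 552 ± 293 in adult PMN-MDSC (n = 6), 93.8 ± 30.6 in newborn M-MDSC (n = 5) and 557 ± 491 in adult M-MDSC (n = 3). In newborn PMN-MDSC the next were Nfkbiz (38.8 ± 4.77 CPM per kb), Rela (31.5 ± 4.27) and Nfkb1 (25.2 ± 2.04), and Relb was the lowest (3.75 ± 0.37). In adult PMN-MDSC the next were Tnfaip3 (116 ± 64.9 CPM per kb) and Nfkbiz (111 ± 55.7), whose levels differed by less than their spread, while Rela ranked 7 and Nfkb1 ranked 9. Tnfaip3 thus ranked 6 in newborn and 2 in adult PMN-MDSC. In newborn M-MDSC Rela (31.1 ± 9.22 CPM per kb) and Nfkb1 (27.7 ± 3.57) followed Nfkbia, and these neighbours lay within their spread. In adult M-MDSC Tnfaip3 (150 ± 173 CPM per kb), Nfkbiz (93.2 ± 83.1) and Nfkbie (85.3 ± 62.9) followed, with overlapping SDs.

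**Figure D4:**
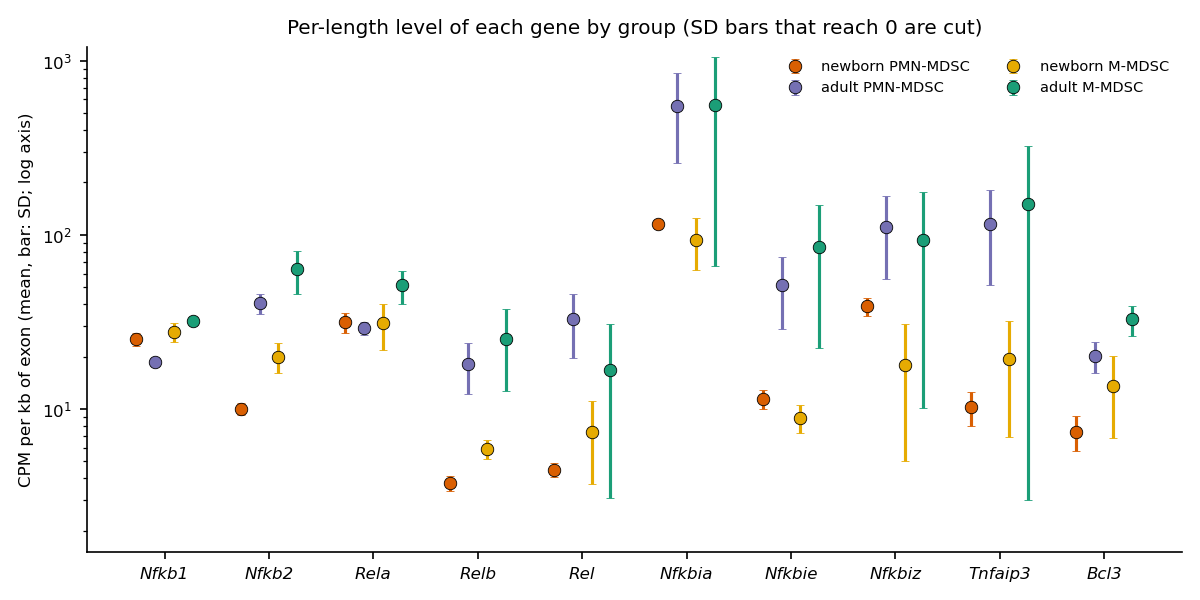
Mean per-length level of each gene (CPM per kb of exon, log axis) in the 4 groups, with bars of 1 SD. Nfkbia is the highest gene in every group, and Rela and Nfkb1 differ least between groups.

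The balance of inhibitor to subunit RNA is given as the ratio of Nfkbia to Rela per length, as a description. It was 4.25, 3.54, 3.52, 3.35 and 3.82 in newborn PMN-MDSC (replicates 2, 3, 37, 38 and 39) and 7.41 (lowest), 20.1 (median) and 28.5 (highest) in adult PMN-MDSC. No newborn value reached the lowest adult value. In M-MDSC it was 3.41, 2.21, 2.92, 5.96 and 1.75 in newborns (replicates 1, 2, 3, 77 and 79) and 18.3, 7.88 and 4.50 in adults (replicates 1, 3 and 28), so newborn replicate 77 exceeded adult replicate 28.

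The cell types were compared within each age, on the same libraries as the age comparisons. In newborns, 2 of the 10 genes were higher in M-MDSC than in PMN-MDSC and none was lower, where 18.7% of all genes were called higher and 23.4% lower. Nfkb2 averaged 91.6 ± 17.4 CPM in M-MDSC and 46.1 ± 3.79 CPM in PMN-MDSC (SD, n = 5 each), a log2 fold change of 0.98 ± 0.16 (adjusted p = 9.23e-05) without overlap. Bcl3 averaged 33.5 ± 16.6 CPM in M-MDSC and 18.4 ± 4.14 CPM in PMN-MDSC, a log2 fold change of 0.77 ± 0.27 (adjusted p = 0.0306) with overlap. Nfkb2 and Relb (0.66 ± 0.27, adjusted p = 0.0582) lay wholly above PMN-MDSC, which held for 16% of all genes, and Nfkbie (-0.39 ± 0.33) lay wholly below by a narrow margin, which held for 22.5%. Over the 29 alternatives of Bcl3 the adjusted p ran from 0.00574 to 0.390. The call of Bcl3 was lost in 14 of them, the fit without the batch 1 PMN-MDSC libraries included. It was lost without any of 9 single libraries: adult PMN-MDSC replicate 1 or 2, newborn PMN-MDSC replicate 2, 3 or 39, adult M-MDSC replicate 1, or newborn M-MDSC replicate 2, 3 or 79 (fold changes from 0.50 to 0.71, adjusted p from 0.0546 to 0.150). Nfkbiz averaged 89.9 ± 64.7 CPM in M-MDSC and 195 ± 23.9 CPM in PMN-MDSC, which did not pass (-1.09 ± 0.49, adjusted p = 0.0800). It was called lower without newborn M-MDSC replicate 77 (-1.66, adjusted p = 0.0104) or adult M-MDSC replicate 1 (-1.18, adjusted p = 0.0301), and Relb was called higher without adult M-MDSC replicate 3 (0.61, adjusted p = 0.0294); over the 29 alternatives the adjusted p ran from 0.0104 to 0.389 for Nfkbiz and from 0.00735 to 0.317 for Relb.

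In adults, 3 of the 10 genes were higher in M-MDSC than in PMN-MDSC and none was lower, where 16.7% of all genes were called higher and 12.5% lower. The 3 were Nfkb1 (384 ± 9.69 CPM in M-MDSC and 225 ± 11.3 CPM in PMN-MDSC), Nfkb2 (291 ± 79.6 and 186 ± 24.1 CPM in the same order) and Rela (157 ± 34.0 and 89.7 ± 7.70 CPM), with n = 3 and n = 6 libraries. Their log2 fold changes were 0.77 ± 0.12 (adjusted p = 8.11e-05) for Nfkb1, 0.64 ± 0.17 (adjusted p = 0.0102) for Nfkb2 and 0.79 ± 0.19 (adjusted p = 0.00471) for Rela. For these 3 genes all libraries of M-MDSC lay above all of PMN-MDSC, which held for 14% of all genes. Nfkbia was at 897 ± 791 CPM in M-MDSC and 889 ± 472 CPM in PMN-MDSC, and its difference of -0.10 ± 0.48 was well inside the spread (adjusted p = 0.892). The call of Nfkb2 was lost without adult M-MDSC replicate 1 (0.37, adjusted p = 0.117), and that of Rela without adult M-MDSC replicate 28 (0.66, adjusted p = 0.0579). Rel was called lower without adult M-MDSC replicate 1 (-1.88, adjusted p = 0.00773), and Relb higher without replicate 3 (0.80, adjusted p = 0.0221). Without the batch 1 PMN-MDSC libraries only Nfkb1 of the 3 stayed called, and over the 29 alternatives the adjusted p ran from 0.00309 to 0.197 for Nfkb2, from 0.00145 to 0.143 for Rela, from 0.00458 to 0.636 for Rel and from 0.0221 to 0.873 for Relb.

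The pattern over the 19 libraries was compared by the root mean square difference of centred log2 CPM. Nfkb1 and Rela were each other's most alike gene among the 10 (0.33), as were Nfkb2 and Relb (0.38) and Nfkbia and Nfkbie (0.48). Nfkbiz (0.61) and Tnfaip3 (0.67) were most like Nfkbia, Bcl3 was most like Nfkb2 (0.52), and Rel was most like Tnfaip3 (0.70). Among 9535 other genes compared, the 5 closest to the mean of the 10 were Cyth1 (0.29), Bcl2l11 (0.29), Prr3 (0.30), Zfp263 (0.31) and Zc3h12a (0.31). Cyth1 encodes a guanine exchange factor of ARF proteins, Bcl2l11 the cell death protein BIM, and Zc3h12a the RNase Regnase-1.

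Upstream of the members, receptors that signal to NF-kB were mostly lower in newborns. Over all genes 20.5% were called lower in newborn PMN-MDSC and 14.3% in newborn M-MDSC. In PMN-MDSC 14 of 21 receptors tested were lower and 3 higher, with a median log2 fold change of -1.10, and in M-MDSC 13 were lower and none higher, with a median of -1.01. Tnfrsf13c, the BAFF receptor of B cells and also a marker of them, averaged 11.4 ± 3.02 CPM in newborn and 101 ± 18 CPM in adult PMN-MDSC (-3.10 ± 0.23, adjusted p = 2.82e-09). Tlr9, a sensor of unmethylated DNA, averaged 14.2 ± 4.85 CPM in newborn and 108 ± 10.3 CPM in adult PMN-MDSC (-2.86 ± 0.27, adjusted p = 8.53e-08). Tlr1, a partner of TLR2, was also lower (-2.49 ± 0.28), while Ltbr, the lymphotoxin receptor that feeds the non-canonical pathway, was higher in newborns (90.1 ± 12.5 CPM in newborn and 30.2 ± 3.40 CPM in adult PMN-MDSC, 1.58 ± 0.21, adjusted p = 4.87e-06).

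The signalling layer between receptor and IkB had calls in both directions in PMN-MDSC, at shares not set apart here from those of all genes (27.1% higher and 20.5% lower). Of 17 genes of the IKK complex and its upstream kinases, 6 were higher and 5 lower in newborns, with a median of 0.31. Ikbkb, the catalytic IKK subunit of the canonical pathway, averaged 109 ± 10.2 CPM in newborn and 210 ± 22.3 CPM in adult PMN-MDSC (-0.95 ± 0.12, adjusted p = 3.73e-06), and Ripk2, the kinase of NOD receptors, 6.04 ± 1.30 CPM and 23.8 ± 4.38 CPM in the same order (-1.98 ± 0.37). Irak3, an inhibitory kinase relative of the IL-1 receptor pathway (1.30 ± 0.23), and Tab1, a partner of the TAK1 kinase (1.32 ± 0.23), were higher. In M-MDSC 1 gene of this list was higher and 3 were lower, where 15.9% of all genes were called higher and 14.3% lower. Of 18 adaptors and ubiquitin ligases, 2 were higher and 4 lower in newborn PMN-MDSC, and 1 higher and 6 lower in newborn M-MDSC. Card9, the adaptor of fungal receptors, averaged 96.9 ± 6.58 CPM in newborn and 32.0 ± 3.45 CPM in adult PMN-MDSC (1.61 ± 0.13, adjusted p = 7.65e-09). Traf1, an adaptor of TNF receptors, averaged 4.42 ± 1.53 CPM in newborn and 51.4 ± 17.7 CPM in adult PMN-MDSC (-3.58 ± 0.38, adjusted p = 3.41e-07), and Traf5 (-2.05 ± 0.30) and the ubiquitin ligase Birc3 (-1.25 ± 0.22) were lower too.

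The other IkB proteins and negative regulators showed no common direction in PMN-MDSC, where 3 of 15 were higher and 5 lower in newborns, with a median of -0.17. Over all genes 27.1% were called higher and 20.5% lower there. In M-MDSC 4 were lower and none higher, where 14.3% of all genes were called lower and 15.9% higher. The nuclear IkB Nfkbid (77.0 ± 6.49 CPM in newborn and 262 ± 71.4 CPM in adult PMN-MDSC, -1.75 ± 0.29) and Zc3h12a (68.7 ± 7.21 and 249 ± 121 CPM in the same order, -1.84 ± 0.35) were lower in both cell types. Otulin, which cleaves linear ubiquitin chains (-1.35 ± 0.24), and Tnip2, a partner of A20 (-1.35 ± 0.37), were lower in newborn PMN-MDSC.

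Downstream, 18 of 30 NF-kB target genes tested were lower and 3 higher in newborn PMN-MDSC, with a median log2 fold change of -2.51, and 19 were lower and 1 higher in newborn M-MDSC, with a median of -1.92. The shares of all genes called lower were 20.5% and 14.3% in the same order. Il1b, the cytokine IL-1 beta, averaged 146 ± 32.7 CPM in newborn and 2213 ± 521 CPM in adult PMN-MDSC (-3.90 ± 0.42, adjusted p = 4.38e-07). Cd83, a surface protein of activated antigen-presenting cells, averaged 12.9 ± 2.18 CPM in newborn and 296 ± 104 CPM in adult PMN-MDSC (-4.43 ± 0.46, adjusted p = 2.32e-07), and the adhesion molecule Icam1 19.95 ± 3.36 CPM and 90.6 ± 26.4 CPM in the same order (-2.15 ± 0.22). Lcn2, a siderophore-binding protein that is also stored in neutrophil granules and stands among the neutrophil markers, went against them (12170 ± 599 CPM in newborn and 496 ± 41.3 CPM in adult PMN-MDSC, 4.62 ± 0.31, adjusted p = 7.48e-10).

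Early response genes, which many stimuli induce within minutes and not through NF-kB alone, were mostly lower in newborns, as were the members. Over all genes 20.5% were called lower in newborn PMN-MDSC and 14.3% in newborn M-MDSC. Of 20, 17 were lower and 1 higher in newborn PMN-MDSC (median -1.53), and 16 were lower and none higher in newborn M-MDSC (median -1.63). Their summed level was 4057 to 5723 CPM in newborn and 8844 to 15873 CPM in adult PMN-MDSC, and 4335 to 8915 CPM in newborn and 10415 to 17829 CPM in adult M-MDSC. Among adult PMN-MDSC libraries this sum was highest in replicates 2 and 33 (15873.1 and 15320.5 CPM). The summed level of the 10 members was highest in replicates 1 and 32 (4966 and 4890 CPM). The transcription factor Atf3 averaged 18.1 ± 7.47 CPM in newborn and 443 ± 227 CPM in adult PMN-MDSC (-4.62 ± 0.51, adjusted p = 5.26e-07). Ier5 (-1.85 ± 0.23), the phosphatase Dusp1 (-1.86 ± 0.24) and the AP-1 subunit Junb (-1.68 ± 0.22) were lower as well. None of these 20 genes was at 0 over a group, and the part of such induction in the NF-kB differences was not tested.

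**Figure D5:**
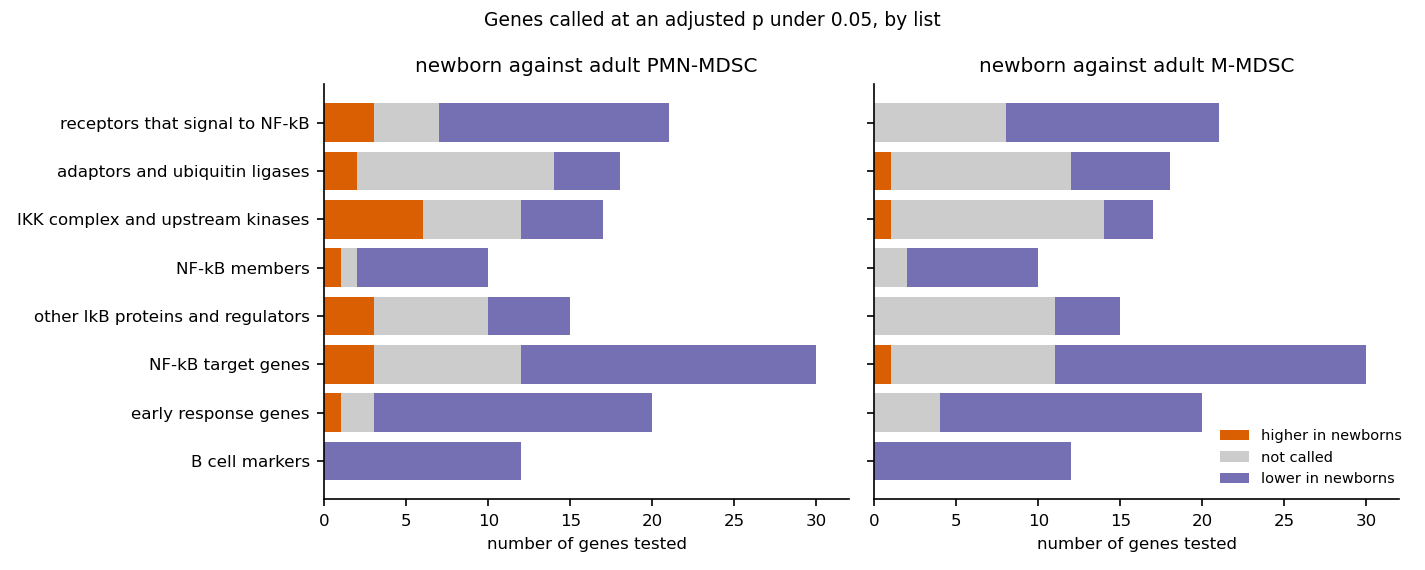
Number of genes called higher (orange), not called (grey) and called lower (purple) in newborns for each list of the pathway and for B cell markers, in PMN-MDSC (left) and M-MDSC (right). Targets, receptors, early response genes and B cell markers are mostly lower, while the kinases and adaptors between receptor and IkB are mixed.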

How the data were processed

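RNA from spleen MDSC purified by beads or sorting was sequenced in 19 libraries (total RNA kit, 50 bp single-end reads, per the labels). Estimated counts by gene and library stand in 1 table deposited by the authors; RSEM 1.2.3, DESeq2 and build mm10 are named in the submitters' processing notes, and the aligner is not given in the sources used here. All values were whole numbers, so rounding changed 0 of them. Samples were grouped by the labels.

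Genes were filtered with filterByExpr by group, scaled by TMM and fitted over all 19 libraries with group and batch as terms in edgeR 4.0.16 (quasi-likelihood F test, Benjamini-Hochberg adjustment over 12943 genes, threshold 0.05, 14 residual degrees of freedom; R 4.3.3, limma 3.58.1). The standard error is the fold change divided by the root of F. CPM refer to TMM-scaled library sizes, and exon lengths come from GENCODE M21, in which 96.6% of the identifiers were found. The PMN-MDSC age comparison was run on simulated counts with 200 genes changed, 1 fixed spread, and no batch effect or matched libraries. That run does not cover the wider spread of the real libraries or the other comparisons. Alternatives were other scalings, no filter, DESeq2 1.42.0, fewer groups or batches, a replicate block and leaving out each library. Likeness used log2 CPM with a prior count of 2, among genes of at least 10 CPM in their highest group.

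All 10 members are named in every comparison. From each other list at most 4 genes are named, those with the smallest adjusted p in PMN-MDSC between ages. The members and lists were chosen with earlier results of these data known. A total count of 827744 in the shallowest library still gave every member counts above 0.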

Additional observations from a re-analysis of the deposited data

Results flagged for a closer look

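In 30 groups of 5 or 6 libraries, 1 library stood apart from its group by Dixon's test at the 95% level for 3 genes, where chance gives about 1 group in 20. These were Relb in newborn PMN-MDSC replicate 38 (17.1 CPM, above the others), Nfkbiz in newborn PMN-MDSC replicate 39 (154 CPM, below the others) and Bcl3 in the same library (11.3 CPM, below the others).

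The age effect differed between the cell types by the test of the difference itself for 2 genes. Nfkb1 differed by -0.63 on the log2 scale (M-MDSC minus PMN-MDSC) and Rela by -0.87.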

How the results depend on the processing

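For the 10 genes in 5 comparisons, 50 results, 1328 of 1440 alternative values kept direction and call, 46 lost the call, 33 gained one and 33 changed sign. Leaving out each library gave 910 values kept, 15 calls lost, 10 gained and 15 signs changed. The other settings gave 418 values kept, 31 calls lost, 23 gained and 18 signs changed. In newborn against adult PMN-MDSC 7 to 9 of the 10 genes were called under every alternative. Where a value moved, the cause was not tested unless fewer libraries entered the fit.

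Over all genes, 6171 were called between ages in PMN-MDSC, against 9548 with the compared groups only, 3760 in batch 1, 3740 without the batch 1 PMN-MDSC libraries and 5459 to 7104 without single libraries. In M-MDSC 3910 were called, against 1267 with the compared groups only and 3450 to 4340 without single libraries. Of the 10 genes 8 were called there, against 4 with the compared groups only, 4 in batch 2 and 6 to 9 without single libraries. The difference of age effects was called for 2344 genes, against 408 in batch 1, 4254 in batch 2 (2465 higher and 1789 lower, against 856 and 1488), 968 without the batch 1 PMN-MDSC libraries and 2021 to 2905 without single libraries. It was called for 2 of the 10 genes, against 1 without a filter, 0 in batch 1, 0 without the batch 1 PMN-MDSC libraries and 1 to 3 without single libraries (1 without adult M-MDSC replicate 28). Between cell types in newborns 5437 genes were called, against 3231 in batch 1 and 4777 to 6328 without single libraries. Of the 10 genes 2 were called, against 4 with upper-quartile scaling, 5 with the compared groups only, 1 without the batch 1 PMN-MDSC libraries and 1 to 3 without single libraries. In adults 3772 genes were called, against 1368 in batch 1, 6457 in batch 2 (2090 higher and 4367 lower), 2407 without the batch 1 PMN-MDSC libraries and 2250 to 5036 without single libraries (2250 without adult M-MDSC replicate 28). Of the 10 genes 3 were called, against 1 in batch 1, 1 without the batch 1 PMN-MDSC libraries and 2 to 4 without single libraries.

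Same-numbered libraries of different groups correlated at -0.05 to 0.18 in 8 pairs, and the numbers were not taken as pairing. The 2 highest were adult M-MDSC with adult PMN-MDSC, at 0.176 for replicate 1 and 0.182 for replicate 3. The 16 pairs of unlike number ran from -0.18 to 0.06. Each pair involved a group with 2 batch 1 libraries, whose deviations mirror each other, so these ranges are not independent. The labels do not say whether the same-numbered adult libraries share a source. If they do, the fit reported ignores that pairing. The replicate block shared a term among all batch 1 libraries of the same number, newborn and adult alike. It therefore does not answer for the adult pairing alone. With a replicate block 4 of the 10 genes were called between cell types in newborns, where Relb and Nfkbiz gained a call, Rel gained one in adults and in the difference, and Tnfaip3 in adults was -0.28. The block called 6059 genes between ages in PMN-MDSC and 3690 in M-MDSC.

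Signs changed as follows (log2). Rela between ages in PMN-MDSC was -0.042 with DESeq2 size factors, -0.11 with upper-quartile scaling and -0.038 by DESeq2's Wald test, and Rel in M-MDSC was 0.67 in batch 2. In the difference Tnfaip3 was -0.025 in batch 1, and in batch 2 Relb was -0.10, Nfkbia 0.66 and Nfkbiz 1.01. Between cell types in newborns Rela was 0.065 with upper-quartile scaling and 0.26 in batch 1. In adults Nfkbia was 0.012 without the batch term and 0.36 in batch 1, Nfkbiz 0.13 in batch 1 and 0.053 without the batch 1 PMN-MDSC libraries, Nfkbie -0.033 in batch 2, and Tnfaip3 -1.80 in batch 2 and -0.069 without the batch 1 PMN-MDSC libraries. Leaving out single libraries gave ranges across 0 in the difference for Relb (-0.19 to 0.52), Nfkbia (-0.65 to 0.63), Nfkbiz (-1.38 to 0.14) and Bcl3 (-0.14 to 0.32), in newborns for Rela (-0.29 to 0.067), and in adults for Nfkbia (-1.07 to 0.31), Nfkbie (-0.12 to 0.97), Nfkbiz (-1.32 to 0.28) and Tnfaip3 (-1.26 to 0.90). None of these was called in the fit reported.

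The batch 1 libraries were shallow, and adult M-MDSC had 3 libraries, 1 of them in batch 2, which limits the precision there.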
